A study of Arabidopsis thaliana with 4 samples.

Results

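A run of 10 neighbouring genes on Arabidopsis thaliana chromosome 1, from AT1G51790 to AT1G51890, that encode receptor kinases with a malectin-like domain and leucine-rich repeats, was examined in whole seedlings. The run was drawn around AT1G51830, whose lower signal in the overexpressor arrays was already known from these data, and the other genes were taken as its neighbours of the same family. Of the 10 genes, 8 had a probe set naming that gene alone, among 22810 probe sets on the array. Throughout, having a probe set means having 1 that the annotation used assigns to that gene alone. IOS1 (AT1G51800) and RHS6 (AT1G51880) had none in the annotation used and were not analysed here. In the gene order of the TAIR10.1 assembly the run spans 13 protein-coding genes, and the 3 others, AT1G51823, AT1G51840 and AT1G51870, are not among the 10.

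The data were 4 single-colour Affymetrix arrays of total RNA from untreated Col-0 seedlings, 2 weeks old and grown on agar plates with sucrose. Of these, 2 arrays were labelled wild type and 2 were titled as Col-0 plants overexpressing At1g54160, the locus of NFYA5, a subunit of a transcription factor that binds CCAAT boxes. The design text of the series instead names an nfya5 mutant, and At1g54160 had no probe set in the annotation used, so the label could not be checked. The titles were followed. The promoter that drives the transgene and the number of independent lines are not given in the sources used here, nor is it stated that replicates were separate cultures, so the errors and p-values cover the spread among these arrays, which could be purely technical.

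Malectin-like leucine-rich repeat kinases sit in the plasma membrane, with the malectin-like domain and the repeats outside the cell and a protein kinase domain inside. Many of them lie in tandem arrays of related genes. IOS1 is known to act in pattern-triggered immunity, the response to conserved microbial molecules, where it works with the receptors of bacterial flagellin and elongation factor Tu. RHS6 was named as a root hair specific gene.

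AT1G51830 showed the largest difference among the tested genes of the run, and its signal in the overexpressor arrays was at most 50.6% of wild type in every pairing of arrays. AT1G51850 and AT1G51790 had smaller differences of the same direction that did not pass the test, AT1G51805 and AT1G51890 had groups that overlapped, and AT1G51810, AT1G51820 and AT1G51860 were too dim to be tested. Values are array signals in arbitrary units that the authors scaled to a common target on every array. Differences are on the log2(signal + 50) scale, as overexpressor minus wild type, and a probe set was tested if its mean signal over the 4 arrays was at least 100. Signals of different probe sets depend on their probes and were not set against each other. In whole seedlings, fewer cells of a type and less RNA per cell cannot be told apart.

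**Figure D1:**
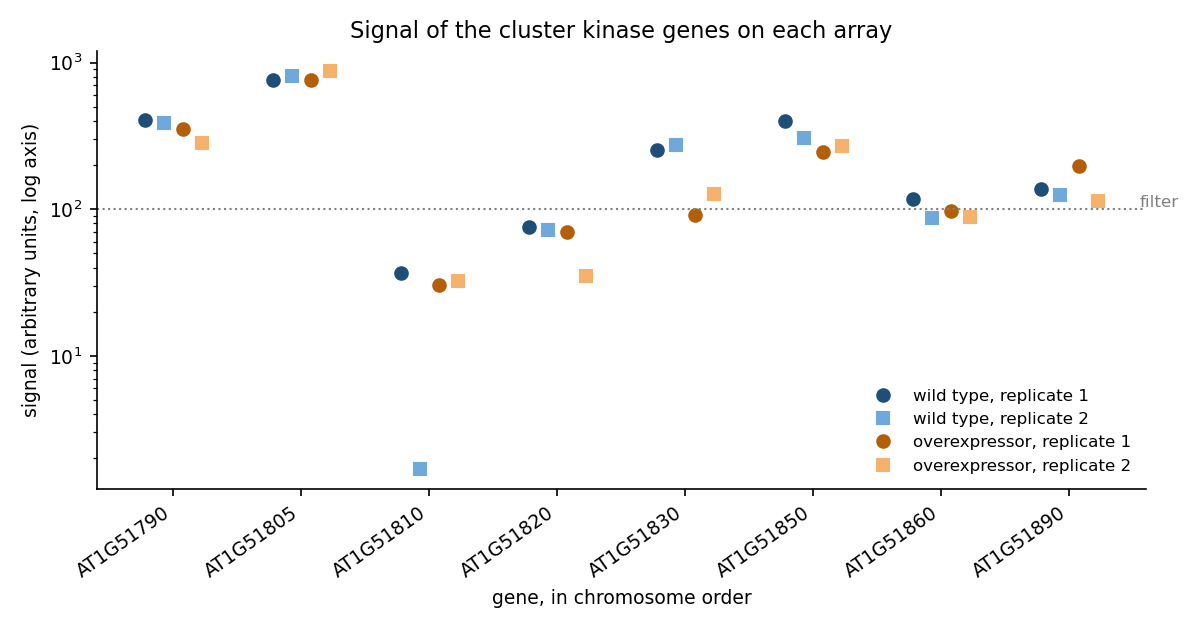
Signal of each of the 8 receptor kinase genes with a probe set on each of the 4 arrays (vertical log axis, arbitrary units), with genes in chromosome order and each point 1 array; the dotted line marks the mean signal of 100 needed for testing. AT1G51830 was at 251.9 and 274.9 on the wild type arrays and at 91.1 and 127.5 on the overexpressor arrays.

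AT1G51830 gave 251.9 and 274.9 on the wild type arrays against 91.1 and 127.5 in the overexpressor. The groups did not overlap, and the gap between them was wider than the spread within either. The means were 263.4 ± 16.3 and 109.3 ± 25.7 (SD, n = 2), a ratio of wild type to overexpressor of 2.41 in signal. On the log2(signal + 50) scale, which understates the change of a dim probe set, the difference was -0.98 ± 0.17 (SE), or 1.98-fold. Of 13961 tested probe sets, 10 had a lower log2 difference. The gene was chosen for this value, which is therefore given as a description. Leaving out each array in turn gave log2 differences from -1.15, without overexpressor replicate 2, to -0.82, without overexpressor replicate 1. The gene did not pass the threshold with a constant variance prior or with no filter on dim probe sets.

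AT1G51850, the member that follows AT1G51830 in the run, gave 399.8 and 307.7 on the wild type arrays against 245.1 and 268.0 in the overexpressor. Both overexpressor values lay below both wild type values, but the wild type arrays differed from each other by more than the nearer pair across the groups. The mean signals were 353.75 ± 65.1 and 256.55 ± 16.2 (SD, n = 2), with a log2 difference of -0.39 ± 0.15 (SE) that did not pass the threshold. Single overexpressor arrays stood at 61.3% to 87.1% of single wild type arrays, against 33.1% to 50.6% for AT1G51830, and whether the 2 genes' differences differ was not tested. Without wild type replicate 1 the log2 difference of AT1G51850 was -0.22, and without wild type replicate 2 it was -0.55.

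AT1G51790, the first gene of the run, gave 402.4 and 388.8 on the wild type arrays against 350.4 and 284.4 in the overexpressor. The groups did not overlap, and the overexpressor arrays were farther apart than the wild type arrays. The log2 difference was -0.28 ± 0.13 (SE) and did not pass. Leaving out overexpressor replicate 2 gave -0.15, and leaving out replicate 1 gave -0.41.

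AT1G51805 gave 754.4 and 815.4 on the wild type arrays against 764.6 and 880.2 in the overexpressor. The groups overlapped, and the log2 difference of 0.06 ± 0.11 (SE) was smaller than its error. AT1G51890, the last gene of the run, gave 136.8 and 125.3 on the wild type arrays against 196.7 and 113.0 in the overexpressor. One overexpressor array was above both wild type arrays and the other below both, so the log2 difference of 0.15 ± 0.20 (SE) turned to -0.15 without overexpressor replicate 1 and was 0.45 without overexpressor replicate 2.

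The 3 dim genes carried little information. AT1G51860 was just under the filter, with a mean signal of 97.1 over the 4 arrays, and gave 117.1 and 86.4 on the wild type arrays against 96.9 and 87.9 in the overexpressor, which overlapped. AT1G51820 gave 75.2 and 71.6 on the wild type arrays against 70.0 and 35.2 in the overexpressor. Its groups did not overlap, but overexpressor replicate 1 lay at 97.8% of the lower wild type array. AT1G51810 gave 36.5 and 1.7 on the wild type arrays against 30.5 and 32.3 in the overexpressor, so that its groups overlapped and 1 wild type array was near the bottom of the scale. In a fit with no filter the log2 differences of AT1G51860, AT1G51820 and AT1G51810 were -0.09 ± 0.19, -0.29 ± 0.22 and 0.28 ± 0.25 (SE). The value of AT1G51810 ranged from 0.16 to 1.69 as the number added to the signal went from 100 to 1, and rests on the single low wild type array.

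Of the 5 tested genes of the run, 1 was called lower by limma at the adjusted threshold of 0.05 over all probe sets, AT1G51830 itself, and 0 were called higher. Over all tested probe sets 1.29% passed, 0.759% as lower and 0.530% as higher, which made 106 lower and 74 higher, or 268 lower and 115 higher after centring each array on its median. Because AT1G51830 was chosen on this comparison, its count carries no weight. Of the 4 other tested genes 0 passed, and 1, AT1G51850, had an unadjusted p under 0.05, as did 16.5% of all tested probe sets. The median log2 difference of those 4 genes was -0.11, and that of all tested probe sets was 0.02. Of the 4, 2 had groups that did not overlap with the overexpressor lower, against 22.0% of all tested probe sets, and 0 with it higher, against 26.1%. Of the 3 dim genes 1 was apart as lower, against 13.1% of all probe sets that were not tested, and 0 as higher, against 21.7%.

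**Figure D2:**
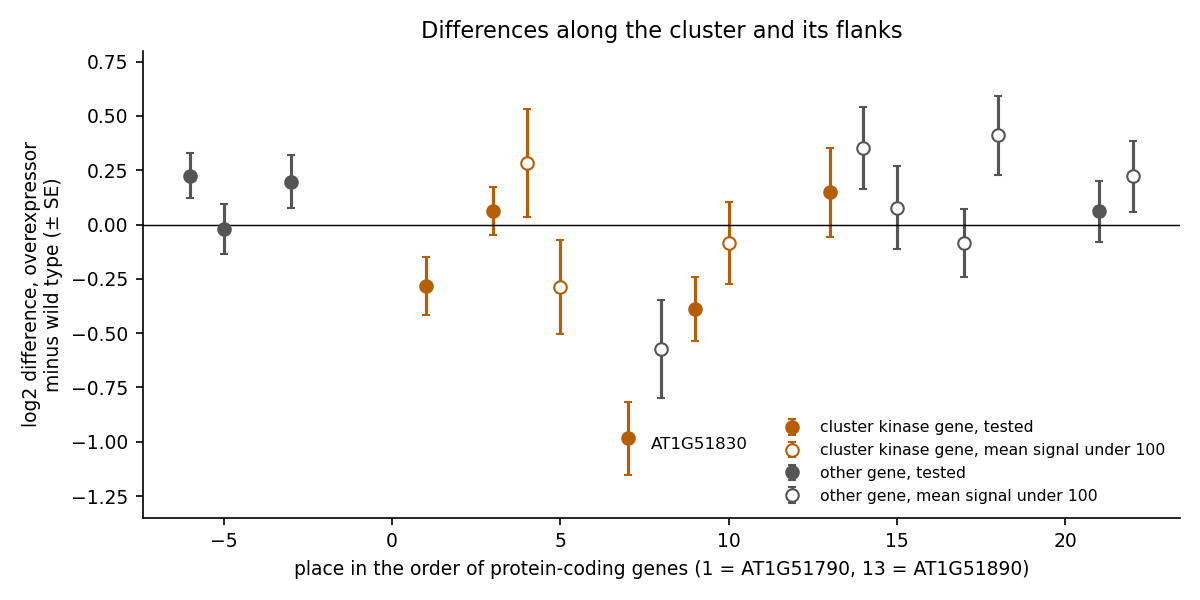
Log2 difference of each gene with a probe set, overexpressor minus wild type, along the order of protein-coding genes on chromosome 1, with bars for SE; filled points were tested, and open points had a mean signal under 100 and come from a fit with no filter. AT1G51830 had -0.98 ± 0.17, and the receptor kinase genes at either end of the run had -0.28 ± 0.13 and 0.15 ± 0.20.

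In the run and its flanks, the 3 lowest log2 differences were those of the adjacent genes AT1G51830, AT1G51840 and AT1G51850. Of these, AT1G51830 was chosen for its value, AT1G51840 was not tested and AT1G51850 did not pass. The ends of the run, AT1G51790 and AT1G51890, differed in sign, but neither passed and the difference of AT1G51890 was smaller than its error. AT1G51840, which lies between AT1G51830 and AT1G51850 and is not among the 10, was also dim, at 53.9 and 96.8 on the wild type arrays against 25.4 and 41.5 in the overexpressor. Its groups did not overlap, with the overexpressor lower, as in 13.1% of all probe sets not tested. In the fit with no filter its log2 difference was -0.57 ± 0.23 (SE), which did not pass. On the other side of AT1G51830, AT1G51820 and AT1G51810 were the dim genes described above. Among the 10 protein-coding genes on each side of the run, 9 of 20 had a probe set naming them. Limma called 0 of the 4 that were tested, against 1.29% of all tested probe sets. The 4 were AT1G51720 with 0.22 ± 0.10 (SE), AT1G51730 with -0.02 ± 0.11, AT1G51745 with 0.20 ± 0.12 and IAA18, an auxin response repressor gene, with 0.06 ± 0.14. An unadjusted p under 0.05 was reached by 0 of the 4, against 16.5% of all tested probe sets. AT1G51720 and AT1G51745 had groups that did not overlap, with the overexpressor higher, as in 26.1% of all tested probe sets. AT1G51730 and IAA18 had groups that overlapped. The 5 dim flanking genes, AT1G51900, AT1G51910, AT1G51915, AT1G51920 and IQD27, had signals between 0.7 and 54.4 and log2 differences from -0.09 to 0.41 in the fit with no filter. Of these, AT1G51900, AT1G51920 and IQD27 were apart with the overexpressor higher, beside 21.7% of all probe sets not tested, and the others overlapped. All 8 probe sets of the run have names without a suffix for probes shared between sequences. Cross-hybridisation between these related genes was not measured.

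The spread between replicate arrays also differed from gene to gene, which does not depend on the comparison of the groups. It is given as the absolute log2(signal + 50) difference between the 2 arrays of a group and set against probe sets whose mean signal lay within 1.5-fold. For AT1G51890 the overexpressor arrays differed by 0.60, more than 97.0% of 3292 such probe sets, whose median was 0.16. For AT1G51810 the wild type arrays differed by 0.74, more than 94.1% of 2481. For AT1G51830 the wild type arrays differed by 0.11 and the overexpressor arrays by 0.33, with medians of 0.17 and 0.15 among 3603 probe sets of like signal, so the spread between its overexpressor arrays exceeded that of 84.6% of them. For AT1G51850 the wider pair was wild type, with 0.33, more than 86.4% of 4121. For AT1G51820 the overexpressor arrays differed by 0.49, more than 89.1% of 2534, and the wild type arrays by 0.04, more than 10.6%.

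**Figure D3:**
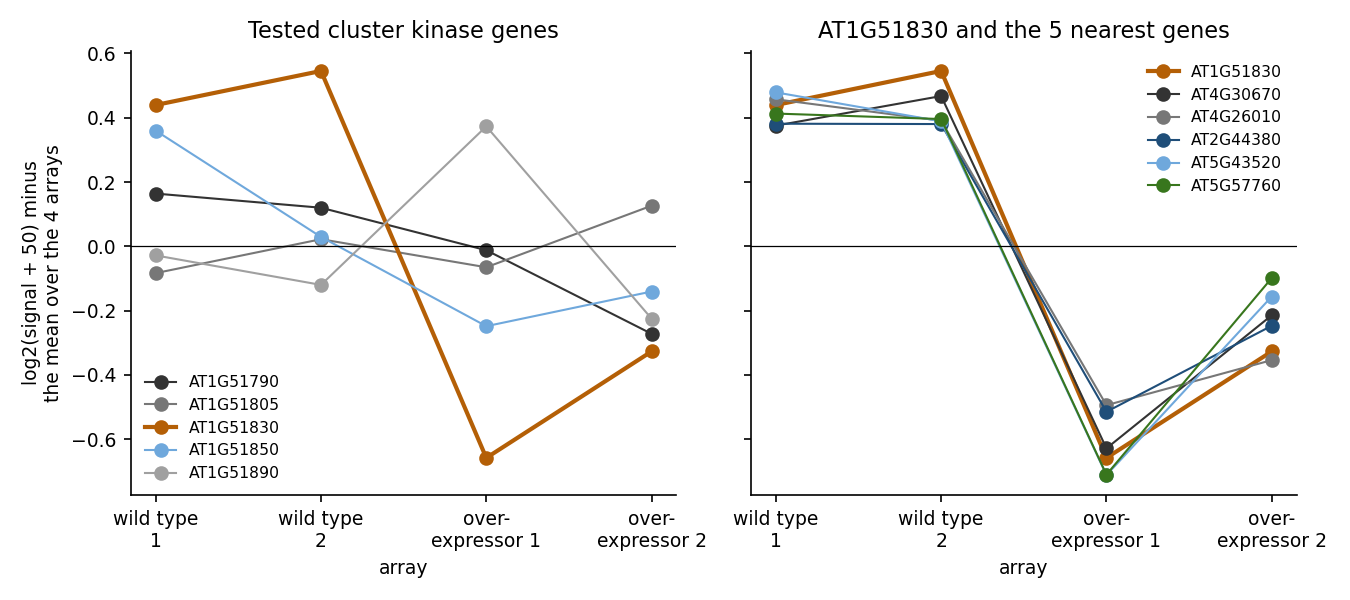
Log2(signal + 50) on each array minus the gene's mean over the 4 arrays, for the 5 tested receptor kinase genes of the run (left) and for AT1G51830 with the 5 genes of nearest profile (right); lines join the values of 1 gene. AT1G51830 lay at 0.44 and 0.55 on the wild type arrays and at -0.66 and -0.33 on the overexpressor arrays.

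Centred on its own mean over the 4 arrays, AT1G51830 lay at 0.44 and 0.55 in wild type and at -0.66 and -0.33 on overexpressor replicates 1 and 2 (log2 scale). Among 7491 tested probe sets naming 1 gene outside the run, the 5 at the smallest Euclidean distance from it over the 4 arrays were AT4G30670, AT4G26010, AT2G44380, AT5G43520 and AT5G57760, with distances from 0.15 to 0.28 log2 units. The nearest, AT4G30670, gave 434.6 and 466.5 on the wild type arrays against 191.7 and 272.0 in the overexpressor. Like AT1G51830, it was lowest on overexpressor replicate 1, as its choice by profile makes likely. AT4G26010 gave 897.6 and 854.9 on the wild type arrays against 440.1 and 490.1 in the overexpressor. The ranking rests on 4 arrays, and 0 of the 5 stayed among the nearest without overexpressor replicate 1. Of the run, AT1G51850 came nearest to AT1G51830, at a distance of 0.69, and 3.60% of the genes compared were nearer. AT1G51790 was at 0.82, with 11.7% nearer, AT1G51805 at 1.05, with 49.7% nearer, and AT1G51890 at 1.32, with 91.1% nearer. By log2 difference these genes of the run rank in the same order. AT1G51830 was chosen for its group difference, so the distances are no separate evidence of a shared profile.

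Relatives of the run elsewhere in the genome were mostly dim in these seedlings. Of 30 genes listed from general knowledge as the same kinase subfamily (LRR-I), 23 had a probe set and 4 were tested, of which limma called 0, with 2 at an unadjusted p under 0.05, beside 1.29% and 16.5% of all tested probe sets. The other 19 had signals between 0.4 and 96.8 on every array, with groups that did not overlap for 3 as lower (AT1G49100, AT2G28970 and AT4G29990) and 4 as higher (AT3G46350, AT3G46400, AT5G59650 and AT5G59670), beside 13.1% and 21.7% of all probe sets that were not tested. The remaining 12, whose groups overlapped, were AT1G07550, AT2G04300, AT2G19210, AT2G19230, AT2G28990, AT2G29000, AT3G21340, AT3G46340, AT3G46370, AT4G20450, AT4G29450 and AT5G59660. AT2G28960 gave 222.5 and 230.2 on the wild type arrays against 124.7 and 175.2 in the overexpressor, a log2 difference of -0.48 ± 0.17 (SE, limma adjusted p = 0.18), with -0.30 when overexpressor replicate 1 was left out and -0.66 when replicate 2 was. AT1G07560 gave 226.6 and 224.4 on the wild type arrays against 153.4 and 156.9 in the overexpressor, a log2 difference of -0.43 ± 0.14 (SE, limma adjusted p = 0.18). Replicates of AT1G07560 nearly coincided and its groups were well apart, yet limma did not call it. AT1G05700 and AT5G59680 had log2 differences of 0.15 ± 0.16 and 0.10 ± 0.14 (SE). Leaving out 1 array moved AT1G05700 between 0.0069 (without overexpressor replicate 2) and 0.29 (without overexpressor replicate 1), and AT5G59680 between 0.042 (without overexpressor replicate 1) and 0.15 (without overexpressor replicate 2). The median log2 difference was -0.16 over the 4 tested genes and 0.085 over all 23 with a probe set in the fit with no filter.

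**Figure D4:**
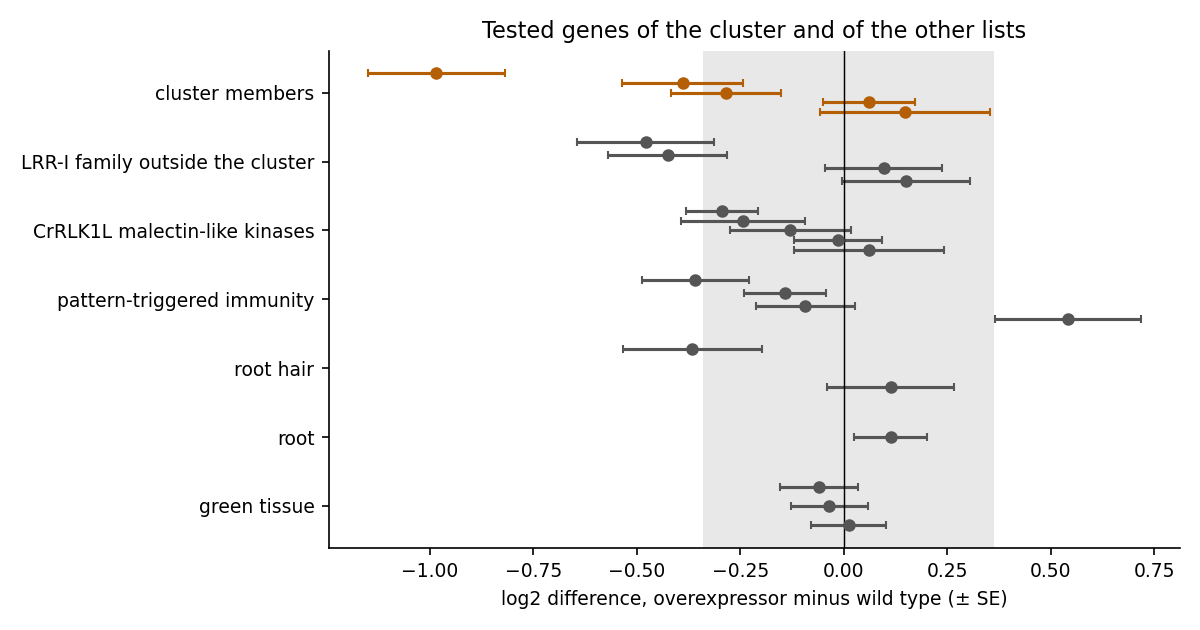
Log2 difference of each tested gene, overexpressor minus wild type, with bars for SE, for the run on chromosome 1 (top row) and the other gene lists; the grey band spans the 5th to 95th percentile of all tested probe sets, from -0.34 to 0.36. AT1G51830 lay at -0.98, and every other tested gene shown lay between -0.48 and 0.54.

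The CrRLK1L receptor kinases also carry malectin-like domains and include FERONIA (FER), a receptor of RALF peptides in cell growth, and THESEUS1 (THE1), which monitors the cell wall. Of 17 genes, 12 had a probe set and 5 were tested, of which limma called 0, with 1 at an unadjusted p under 0.05 (16.5% of all tested probe sets). FER was at 3641.8 and 3670.7 in wild type and at 2966.0 and 2977.5 on the overexpressor arrays. The replicates agreed closely and the groups did not overlap, with a log2 difference of -0.29 ± 0.09 (SE, limma adjusted p = 0.12). THE1 had a log2 difference of -0.01 ± 0.11 (SE), AT2G23200 had 0.06 ± 0.18, and AT2G39360 and AT5G24010 had -0.24 ± 0.15 and -0.13 ± 0.15. Of the 5, 3 (FER, AT2G39360 and AT5G24010) had groups apart with the overexpressor lower, against 22.0% of all tested probe sets. With it higher there were 0, against 26.1%, and the groups of THE1 and AT2G23200 overlapped. Leaving out 1 array moved AT2G39360 between -0.36 (without overexpressor replicate 2 or wild type replicate 1) and -0.12 (without overexpressor replicate 1; -0.13 without wild type replicate 2), and AT5G24010 between -0.22 (without overexpressor replicate 1) and -0.041 (without overexpressor replicate 2). The median of the 5 was -0.13, and -0.041 without overexpressor replicate 2.

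Of 42 genes of pattern-triggered immunity, the pathway in which IOS1 acts, 5 had a probe set in the annotation used. Of these 4 were tested, so the list says little about the pathway. Limma called 0 of the 4, with 2 at an unadjusted p under 0.05 in opposite directions (16.5% of all tested probe sets). WRKY53, a transcription factor gene of defence and senescence, gave 81.8 and 83.3 on the wild type arrays against 158.8 and 128.3 in the overexpressor, a log2 difference of 0.54 ± 0.18 (SE, limma adjusted p = 0.16). WRKY22, a transcription factor gene downstream of the flagellin receptor, had 329.6 and 316.6 against 233.9 and 248.1, a log2 difference of -0.36 ± 0.13 (SE, limma adjusted p = 0.20). BIK1, a cytoplasmic kinase that relays the signal of immune receptors, had -0.14 ± 0.10 (SE), and EFR, the receptor of elongation factor Tu, was dim at 27.2 to 71.5. PUB22, a ubiquitin ligase gene that dampens the response, had a log2 difference of -0.09 ± 0.12 (SE).

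Tissue markers with a probe set in the annotation used were few. In root hairs, 2 of 23 listed genes had a probe set, the expansin genes EXPA7 and EXPA18, with log2 differences of 0.11 ± 0.15 and -0.37 ± 0.17 (SE) and a summed signal of 354.9 and 465.2 on the wild type arrays against 376.1 and 371.8 in the overexpressor. The difference of EXPA18 was -0.53 without wild type replicate 1 and -0.20 without wild type replicate 2, and that of EXPA7 was -0.039 and 0.27. For root, 1 of 7 had one, PYK10, a root beta-glucosidase gene, with 0.11 ± 0.09 (SE). For green tissue, 3 of 6 had one, and their summed signal was 52233 and 55432 in wild type and 50668 and 55182 on the overexpressor arrays, overlapping between the groups. Limma called 0 of these 6 marker genes, with 0 at an unadjusted p under 0.05, beside 1.29% and 16.5% of all tested probe sets. PYK10 had groups apart with the overexpressor higher, beside 26.1% of all tested probe sets. EXPA18 had groups apart with it lower, beside 22.0%, and the groups of the other markers overlapped. The part of these tissues in the difference of AT1G51830 was not tested.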

How the data were processed

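The authors deposited 1 linear intensity per probe set and array, which per the submitters' processing notes are MAS5 signals and per the labels were scaled to a target of 500 on each array. The version of MAS5 is not given in the sources used here, and no detection calls were used. Per array the median signal was 181.4 to 194.1, and log2 signals correlated at 0.989 and 0.988 within the groups and at 0.979 to 0.985 across them. Between 0.237% and 0.289% of values were identical between arrays.

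Of 22810 probe sets, 13513 named 1 gene in the platform annotation, 503 named several and 64 were controls, and 13436 of the first matched the TAIR10.1 gene table, used only for names and gene order. A linear model with the group as its term was fitted by lmFit and eBayes with an intensity trend (limma 3.58.1, R 4.3.3) to log2(signal + 50) of the 13961 non-control probe sets with a mean of at least 100. The test was two-sided, with Benjamini-Hochberg adjustment over all of them and a threshold of 0.05. It was run on simulated data with known changes, drawn from the fitted model itself, which cannot show whether the real arrays meet its assumptions. With 2 arrays a group the smallest exact permutation p is 0.333, so that test was not used.

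The 10 genes and the lists were chosen with earlier results of these data known. The text names every gene of the run with a probe set, all relatives with a probe set, of each other list the genes that passed or else the 3 with the smallest p, the flanking genes, and the 5 nearest profiles. THE1, AT2G23200, EFR and PUB22 were added after their values were seen. Alternatives were other added constants (1, 16 and 100), a signal minimum of 250 or none, quantile normalization, median centring, a variance prior that was constant or robust, a replicate block, unshared probe sets naming 1 gene, and each array left out.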

Additional observations from a re-analysis of the deposited data

How the results depend on the processing

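AT1G51830 was lower under every alternative that kept it, with log2 differences from -1.28 (1 added to the signal) to -0.80 (100 added), and the call was lost with a constant variance prior or no filter. It is too dim for a minimum signal of 250. The number of genes of the run that passed was thus 0 under these 3 settings and 1 under the others. With 1 array left out, the lone array of its group is assumed to vary like the other group. Over all probe sets 180 passed, against 9 with a constant prior, 1 with no filter, 383 after median centring, 56 among unshared probe sets naming 1 gene, and from 101 to 489 with 1 array left out. Among unshared probe sets naming 1 gene, 7469 entered the test, against 13961 in the main fit. The causes of these changes in the counts were not tested. With the replicate number as a block 1075 passed, and 1 gene of the other lists, FER, against 0 without it. Same-numbered arrays deviated together only weakly (correlation 0.06 over the tested probe sets). With 2 arrays per group this cannot decide whether the arrays were paired, and the labels state no pairing. Leaving out 1 array, AT1G51890 ranged from -0.15 to 0.45, AT1G51805 from -0.035 to 0.16, EXPA7 from -0.039 to 0.27, RCA from -0.15 to 0.034, LHCB4.2 from -0.096 to 0.026, LHCB4.1 from -0.041 to 0.065, AT1G51730 from -0.16 to 0.12 and IAA18 from -0.18 to 0.30, each with both signs and without passing. LHCB4.1 also turned to -0.035 after median centring. Of the 5 nearest genes, 0 to 3 stayed nearest with 1 array left out, and 3 with 1 or 100 added. The 2 arrays per group limit every value.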
